A study of Arabidopsis thaliana with 24 samples.

Results

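Wild-type and ino80 mutant seedlings of Arabidopsis thaliana were compared at 21 °C, the unheated arm of a warmth experiment, at its 12 h time point. The comparison took 3 libraries of each genotype, 6 of the 24 in the series, and every gene with a TPM (a gene's share of the reads per length, scaled to the same total in every library) of at least 1 in at least 3 of the 12 libraries of the 12 h table. Of 23282 genes listed there, 19578 passed. All seedlings were whole plants of ecotype Columbia (Col), 7 days old when the time count began, raised at 21 °C in short days. One group was wild type and the other carried the allele ino80-5, called ino80 here, and at this temperature both simply stayed at 21 °C for a further 12 h. The same series held 12 h libraries moved to 27 °C and a separate 1 h table, which serve below only to show where the difference at 21 °C was or was not seen again. Whole seedlings mix roots, hypocotyl, cotyledons and young leaves, so fewer cells of a type and less RNA per cell cannot be told apart in any value below. A single allele was profiled, with no rescued line among the groups.

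INO80 is the ATPase that drives a chromatin-remodelling complex, which uses ATP to slide nucleosomes and to take the histone variant H2A.Z out of them. The related SWR1 complex puts H2A.Z in. In Arabidopsis the INO80 gene is known for roles in homologous recombination, flowering and light-dependent growth, and the series asked about its part in thermomorphogenesis, the stretching of seedlings in mild warmth. At a constant 21 °C the contrast of the genotypes shows the state from which such a response starts.

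By a rough estimate the libraries held 14.6 to 15.6 M fragments each, and replicates correlated at r = 0.9917 to 0.9934 across genes, which are not independent replicates. Libraries of different genotype correlated at 0.9694 to 0.9780, and the first principal component, with 67% of the variance, put the 3 Col libraries on one side and the 3 ino80 libraries on the other. No library stood apart from its group. The labels do not say whether replicates were separate cultures, so p-values measure the spread between libraries. That spread was pooled over all 12 libraries of the 12 h table, including those at the warmer temperature, not over the 6 compared. The SE and p-value of a gene can therefore reflect variation between libraries whose values are not printed. Differences are ino80 minus Col on the log2(TPM + 1) scale with their standard error (SE, n = 3 per genotype), which understates the change of genes of low TPM, and a gene is called at an adjusted p below 0.05 (limma, two-sided, Benjamini-Hochberg over the 19578 genes). Genes named below kept their call when any 1 of the 6 libraries was left out, unless stated. The use of strand in counting is not given in the sources used here, so values are uncertain for genes that overlap an annotated neighbour by at least 200 bp, which among those named are HCHIB, PnsB1, CRD1, LHCB2.3, LHCB6, AT4G14090, APR2, PIF7, XTR7, RVE1, FLC, SPL3, ATX5, PHOT2, KNOLLE, EBF2, TCH2, HTA4, AT4G38495, AT2G47210, PIE1, F3H, ARR6, BZR1, BES1 and CO. Close copies whose reads could have been split between them are GSTF6 with GSTF7, the CAB and LHCB2 genes, the RBCS genes and the SAUR genes.

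The genotypes differed in many genes, mostly by little. Of the 19578 genes tested, 5639 (28.8%) were called, 3273 higher in ino80 (16.7%) and 2366 lower (12.1%). The median size of a called difference was 0.45 among the higher and 0.43 among the lower genes. A difference of at least 1 was reached by 269 higher and 214 lower genes, and of at least 2 by 26 and 17. All 3 libraries of one genotype lay beyond all 3 of the other for 8911 genes (45.5%). Calls were more frequent among abundant genes, with 22.9% higher and 17.5% lower in the highest of 4 equal bins of mean level against 11.9% and 9.03% in the lowest. Which direction held more calls depended on the scaling of the libraries: the higher genes numbered 2813 against 3030 lower after median-of-ratios scaling, and 2788 against 2991 after quantile normalization.

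**Figure D1:**
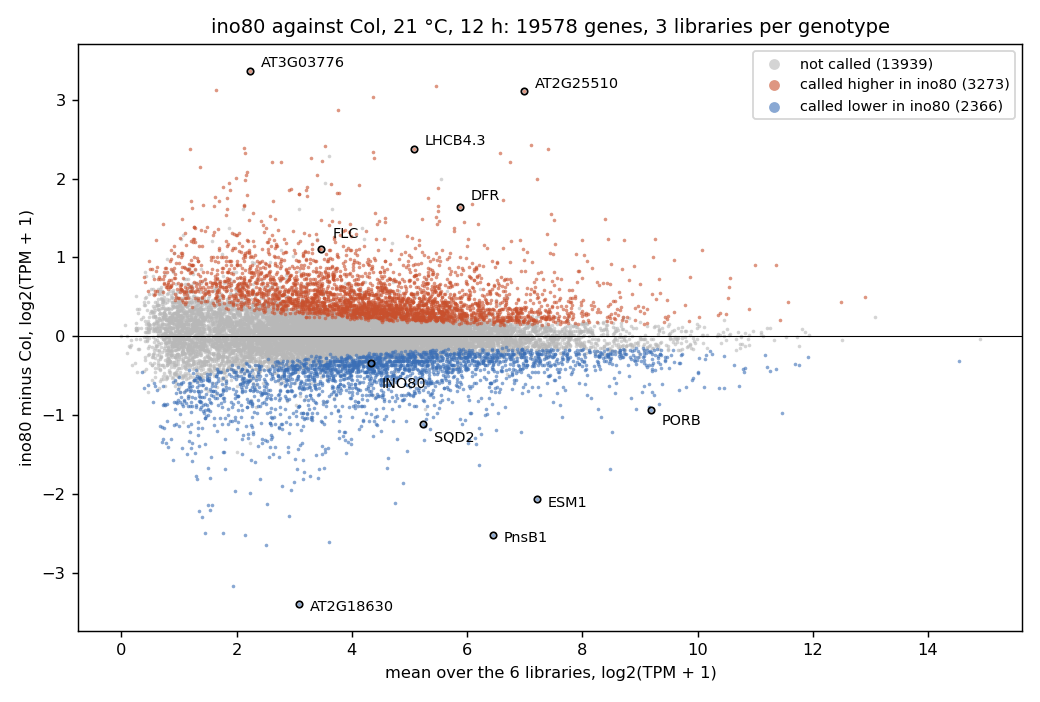
Difference between the genotypes (vertical axis, ino80 minus Col on the log2(TPM + 1) scale) against mean level over the 6 libraries (horizontal axis, log2(TPM + 1)) for 19578 genes, with called genes in colour and some named. The 3273 higher and 2366 lower genes mostly lie within 1 unit of 0, while AT3G03776 (3.37), LHCB4.3 (2.38), PnsB1 (-2.52) and AT2G18630 (-3.40) stand well outside.

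INO80 itself (AT3G57300) was measured at 22.5, 19.97 and 22.3 TPM in Col and at 17.5, 16.4 and 16.6 TPM in ino80. The groups did not overlap, and the mutant kept most of the signal. The difference was -0.34 ± 0.12 (adjusted p = 0.0461), and leaving out any 1 of the 6 libraries ended the call, with adjusted p-values from 0.0524 to 0.126. The position of the insertion or lesion was not used, and one TPM per gene cannot show whether the transcript was full length. Of 9 listed subunits and partners of the complex, 8 were tested, of which 0 were higher and 2 lower, INO80 and AT4G38495, annotated as a chromatin-remodelling complex subunit. AT4G38495 had 2.11, 3.16 and 2.04 TPM in Col against 1.07, 1.58 and 1.30 in ino80 (-0.56 ± 0.17, adjusted p = 0.0236). Without Col replicate 2 or ino80 replicate 3, 0 of the 8 were called. The call of AT4G38495 was lost without Col replicate 2 or ino80 replicate 1 or 3, with an adjusted p up to 0.113. The actin-related proteins ARP5 (0.22 ± 0.09) and ARP4 (0.16 ± 0.09), the RuvB-like ATPase RIN1 (0.05 ± 0.07), AT5G67630 (0.12 ± 0.09) and the histone chaperones NRP1 (-0.20 ± 0.09) and NRP2 (-0.01 ± 0.09) were not called. The 9th entry, AT3G49830, stayed below 0.72 TPM in each of the 6 libraries and was not tested.

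Of 12 genes of the SWR1 complex and the H2A.Z histones, 0 were higher and 2 lower (16.7% and 12.1% of all genes), both of them H2A.Z genes. HTA11 stood at 50.3, 51.1 and 54.0 TPM in Col and 42.5, 39.6 and 45.2 in ino80 (-0.28 ± 0.07, adjusted p = 0.0103, and 0.0518 without ino80 replicate 2). HTA4 was at 6.83, 6.24 and 10.08 TPM against 5.91, 2.78 and 4.74 (-0.69 ± 0.22, adjusted p = 0.0318, and up to 0.15 without Col replicate 3 or ino80 replicate 2 or 3). The most abundant H2A.Z gene, HTA9, differed by -0.01 ± 0.06, with 190 to 200 TPM in Col and 189 to 198 in ino80, and HTA8 by -0.11 ± 0.10. Of the SWR1 subunits, the ATPase PIE1 differed by -0.28 ± 0.14, ARP6 by 0.20 ± 0.09, SEF by 0.13 ± 0.13, SWC2 by 0.07 ± 0.12, AT2G47210 by 0.17 ± 0.08, MBD9 by 0.13 ± 0.13, YAF9A by -0.20 ± 0.09 and YAF9B by 0.32 ± 0.21, none of them called. Without ino80 replicate 2, 0 of the 12 were lower. Summed over the list, the level was 380 to 420 TPM in Col and 376 to 399 in ino80.

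The 12 largest rises were led by genes with little or no annotated function. AT3G03776, annotated as a hydroxyproline-rich glycoprotein, went from 0.239, 1.17 and 0.166 TPM in Col to 15.3, 11.8 and 15.7 in ino80 (3.37 ± 0.20, adjusted p = 7.04e-08). AT4G29200 was close to absent in Col at 0.0503, 0.0527 and 0.0523 TPM and reached 8.49, 8.98 and 7.19 in ino80 (3.13 ± 0.15, adjusted p = 9.65e-09). AT2G25510 rose from a higher base, 41.5, 44.7 and 40.6 TPM, to 336, 425 and 361 (3.11 ± 0.23, adjusted p = 4.1e-07). None of these groups overlapped, and AT5G42530 (3.17 ± 0.25) and AT1G68250 (2.39 ± 0.48) also rose. Others of the 12 encode proteins with an annotated product. HCHIB, a basic chitinase that degrades fungal cell walls, stood at 8.98, 10.8 and 5.64 TPM in Col against 34.2, 41.8 and 66.4 in ino80 (2.34 ± 0.26, adjusted p = 1.61e-05). THI2.2, a thionin, went from 4.13, 3.63 and 4.299 TPM to 28.8, 25.2 and 23.99 (2.42 ± 0.13, adjusted p = 2.21e-08). EARLI1, a lipid transfer protein known from cold and vernalization, went from 5.45, 3.16 and 3.74 TPM to 28.4, 45.9 and 34.9 (2.87 ± 0.19, adjusted p = 1.26e-07), and AT2G15220, of the plant basic secretory protein family, differed by 3.03 ± 0.45.

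The neighbouring glutathione S-transferases GSTF7 and GSTF6, detoxifying enzymes, were also among the largest rises but varied within genotypes. Their SE and p-values also took in the spread at the warmer temperature, so they do not follow from the values listed here alone. GSTF7 had 87.9, 101.5 and 22.5 TPM in Col and 322, 228 and 450 in ino80 (2.43 ± 0.76, adjusted p = 0.0265, and up to 0.125 without Col replicate 3 or ino80 replicate 1 or 3). GSTF6 had 72.0, 114 and 48.2 TPM against 448, 285 and 441 (2.37 ± 0.84, adjusted p = 0.047, and 0.0594 to 0.142 without any 1 library). The remaining member of the 12, LHCB4.3, is described with the antenna genes.

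The 12 largest falls included genes almost silent in the mutant. AT2G18630, a putative transmembrane protein, was at 26.6, 26.0 and 27.4 TPM in Col and at 2.15, 1.47 and 1.32 in ino80 (-3.40 ± 0.13, adjusted p = 1.75e-09). AT2G40570, annotated as an initiator tRNA phosphoribosyl transferase, went from 9.44, 11.1 and 11.1 TPM to 0.244, 0.336 and 0.258 (-3.17 ± 0.13, adjusted p = 1.75e-09). PnsB1, a subunit of the chloroplast NAD(P)H dehydrogenase that carries cyclic electron flow around photosystem I, was the most abundant of the 12, at 207, 213 and 204 TPM in Col and 35.8, 36.4 and 34.0 in ino80 (-2.52 ± 0.07, adjusted p = 6.63e-11). SEP4, a MADS-box factor of flower meristems, fell from 8.42, 9.74 and 10.8 TPM to 0.799, 1.17 and 0.622 (-2.52 ± 0.16). HDA2, a histone deacetylase, fell from 4.73, 5.62 and 5.49 TPM to 0.390, 0.537 and 0.183 (-2.20 ± 0.14). The remaining 7 were the receptor-like kinase AT4G11900 (-2.65), AT3G62460 (-2.61), the sugar transferase relative AT1G70630 (-2.50), AT4G19950 (-2.50), AT1G78230 (-2.28), AT5G08600 (-2.14) and the defensin-like AT4G11393 (-2.14). In each of the 24 genes the libraries of the genotypes did not overlap, which the choice of these genes required.

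**Figure D2:**
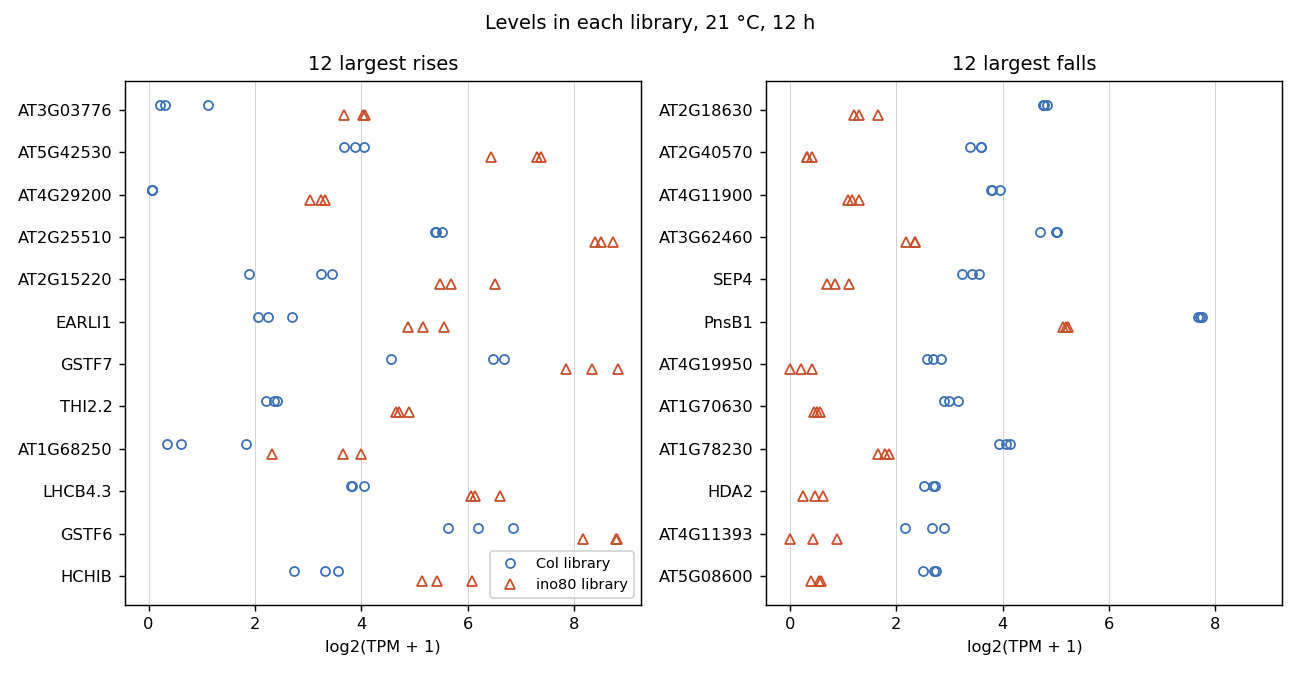
Level in each library, log2(TPM + 1), of the 12 genes with the largest rise and the 12 with the largest fall in ino80; circles are Col libraries and triangles ino80 libraries. AT2G18630 falls from about 26.6 to under 2.2 TPM in every ino80 library. GSTF7 shows the widest spread among Col libraries, 22.5 to 101.5 TPM, followed by AT2G15220 and AT1G68250.

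The share of calls was then read by gene list, 35 lists with 540 entries covering pathways, complexes and cell types, beside the 16.7% and 12.1% of all genes called higher and lower. Markers of roots and shoots come first. Of 12 root genes tested, 4 were higher and 1 lower, with a median difference of 0.27 beside 0.03 over all genes. PYK10, a beta-glucosidase of root endoplasmic reticulum bodies, was at 2008, 1810 and 1964 TPM in Col and 3419, 3782 and 3678 in ino80 (0.91 ± 0.10, adjusted p = 1.09e-05). The Casparian strip proteins CASP1 (26.3, 17.0 and 23.0 TPM against 36.5, 50.3 and 43.1) and CASP2 (12.9, 8.39 and 9.09 against 15.5, 23.1 and 18.4) rose with it, by 0.95 ± 0.19 and 0.85 ± 0.16. SCR, the endodermis regulator, fell from 35.2, 33.6 and 34.7 TPM to 25.4, 26.4 and 28.2 (-0.36 ± 0.07). The root hair genes EXP7 (0.56), EXPA18 (0.51), COBL9 (0.15) and RHD6 (0.30), and the epidermal factors WER (-0.01) and GL2 (-0.32), were not called. The root genes summed to 1919 to 2152 TPM in Col and 3555 to 3955 in ino80 with PYK10, and to 109 to 144 and 136 to 173 without it, where the genotypes overlapped.

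Of 10 leaf and shoot meristem genes, 1 was higher and 1 lower. The lower one was PDF1, an epidermal protein, at 487, 445 and 476 TPM against 291, 332 and 308 (-0.60 ± 0.07, adjusted p = 1.36e-05). The higher one was STM, a meristem regulator, by 0.41 ± 0.12 (adjusted p = 0.0193, and up to 0.0907 without Col replicate 2 or ino80 replicate 2 or 3). RBCS1A differed by -0.04 ± 0.08, and the stomatal genes SPCH (0.25), FAMA (0.05) and TMM (0.14) were not called. Of 8 floral organ genes only PI passed the filter, at 0.248 to 0.772 TPM in Col and 1.13 to 1.95 in ino80 (0.79, adjusted p up to 0.06 without Col replicate 1 or ino80 replicate 2). The other 7 stayed at or below 0.5 TPM in each of the 6 libraries.

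Among 13 seed maturation genes tested, 6 were higher and 1 lower, with a median of 0.57. The storage protein gene CRA1 was at 0.770, 1.94 and 3.47 TPM in Col and 9.78, 13.5 and 13.6 in ino80 (2.21 ± 0.36, adjusted p = 0.000439), and the oil body gene OLEO1 at 0.469, 0.590 and 1.07 against 1.82, 2.37 and 3.13 (1.01 ± 0.22, adjusted p = 0.00388). These remained low levels. OLEO2 (0.56 ± 0.14) and the peroxiredoxin PER1 (0.38 ± 0.09) rose too, and the calls of the storage genes CRU3 (1.95, adjusted p up to 0.0554) and SESA5 (2.32, adjusted p up to 0.0757) were lost without Col replicate 1, and that of SESA5 also without ino80 replicate 3. The 1 lower gene, the seed regulator ABI3 (-0.56, adjusted p = 0.0431), lost its call without Col replicate 1 or 2 or ino80 replicate 2 or 3. The list summed to 40.9 to 55.9 TPM in Col and 79.1 to 93.3 in ino80. The part of these root and seed transcripts in the differences of the lists below was not tested.

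**Figure D3:**
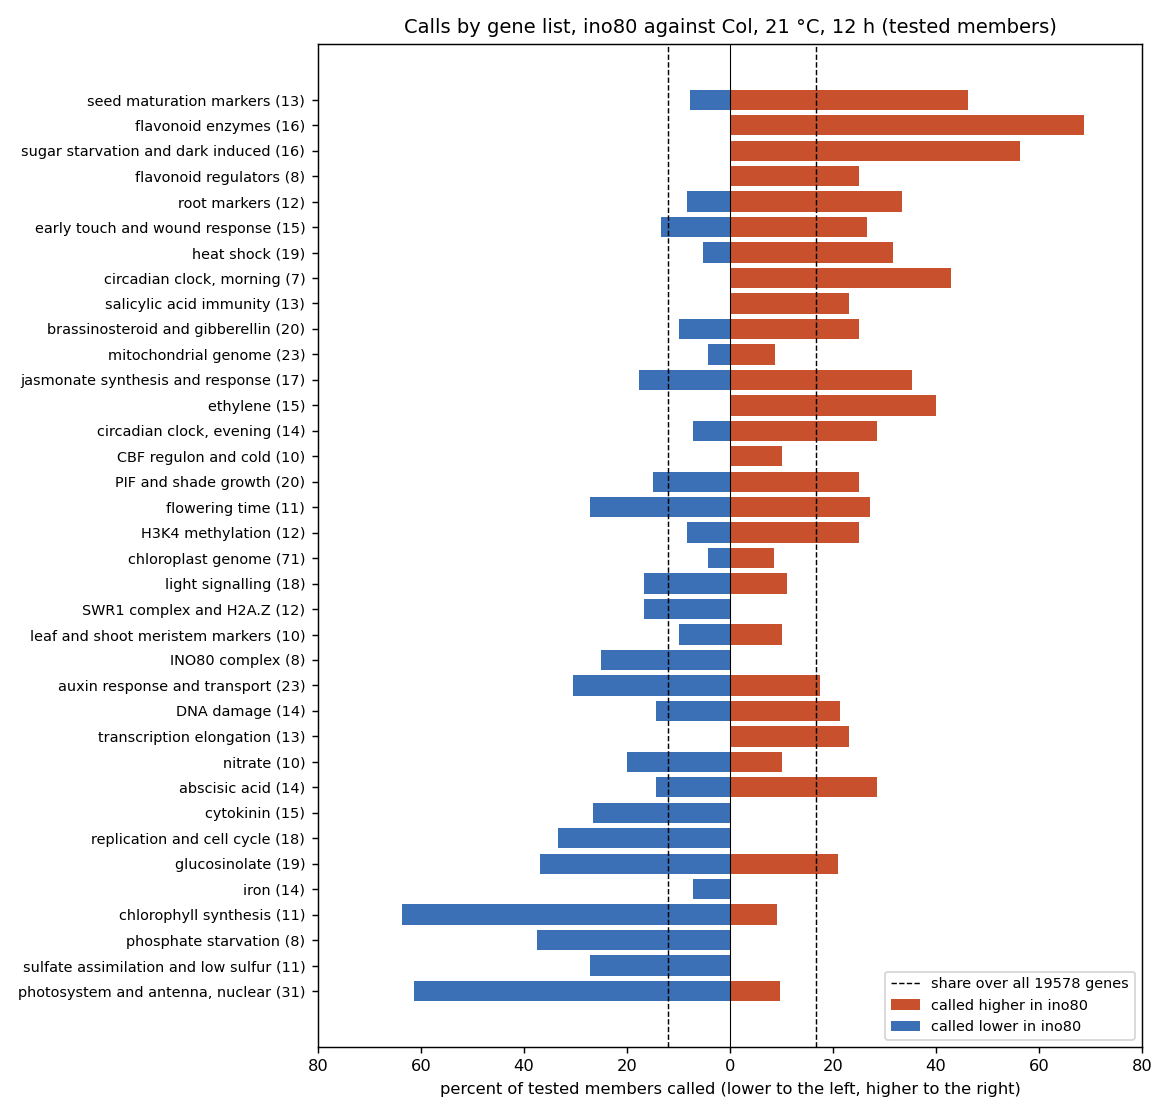
Share of the tested members (number in brackets) of each list with at least 5 tested that was called higher (right) or lower (left) in ino80, ordered by the median difference, with the shares over all 19578 genes, 16.7% and 12.1%, as dashed lines. Photosystem and chlorophyll genes extend farthest to the left, with 19 of 31 and 7 of 11, and flavonoid enzymes (11 of 16) and sugar starvation genes (9 of 16) farthest to the right.

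Genes of the light-harvesting apparatus were lower in ino80. Of 31 nuclear genes of photosystems, antennae and Rubisco, 19 were called lower and 3 higher, against 12.1% and 16.7% of all genes, and the median was -0.36. The falls were largest among the LHCB2 genes, which encode the mobile antenna of photosystem II. LHCB2.2 had 21.2, 25.8 and 23.4 TPM in Col and 8.95, 9.96 and 7.21 in ino80 (-1.34 ± 0.10, adjusted p = 4.35e-07), and LHCB2.1 (-1.29 ± 0.11) and LHCB2.3 (-1.36 ± 0.11) fell alike. Among far more abundant antenna genes, CAB3 went from 4332, 4342 and 3305 TPM to 1879, 2228 and 1921 (-0.98 ± 0.10, adjusted p = 1.06e-05). LHCB6, of the minor antenna, went from 812, 799 and 742 TPM to 419, 430 and 411 (-0.90 ± 0.09, adjusted p = 3.66e-06). The photosystem I genes PSAF (-0.66 ± 0.06), PSAK (-0.66 ± 0.09) and PSAL (-0.41) and the oxygen-evolving genes PSBO1 (-0.37 ± 0.06) and PSBP-1 (-0.39) also fell. CAB1, the most abundant of the antenna genes at 23740 to 28290 TPM in Col, differed by -0.32 ± 0.09 (adjusted p = 0.0202, and up to 0.0821 without Col replicate 1 or 2 or ino80 replicate 1 or 3), and its call was lost under both other scalings.

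The exceptions were specific genes. The minor antenna protein CP29 is encoded by LHCB4.1, LHCB4.2 and LHCB4.3, and these did not move together. LHCB4.2 fell from 474, 469 and 430 TPM to 216, 225 and 228 (-1.03 ± 0.07, adjusted p = 8.99e-08). LHCB4.1 fell from 2883, 3003 and 2633 TPM to 2045, 2171 and 2058 (-0.44 ± 0.06, adjusted p = 0.000142). LHCB4.3 rose from 13.02, 15.5 and 13.1 TPM to 65.7, 96.7 and 69.6 (2.38 ± 0.16, adjusted p = 1.39e-07), so that the rarest of the 3 was the one that increased. The Rubisco small subunit gene RBCS2B rose as well, from 6623, 6595 and 6242 TPM to 8795, 9666 and 9038 (0.50 ± 0.09, adjusted p = 0.00125, and 0.367 after quantile normalization), while RBCS1A (-0.04 ± 0.08), RBCS1B (0.04) and RBCS3B (0.24) were not called. The photoprotection gene PSBS, higher by 0.26 ± 0.08, lost its call without Col replicate 1 or 3 or ino80 replicate 1 or 2 (adjusted p up to 0.106) and after median-of-ratios scaling. Summed, the 31 genes held 103896 to 117060 TPM in Col and 97559 to 107223 in ino80, with overlap, and without RBCS1A 74363 to 84999 and 68299 to 75717.

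Chlorophyll synthesis went the same way. Of 11 genes tested, 7 were lower and 1 higher, with a median of -0.27. The largest falls were those of PORB, CH1 and CRD1. PORB, the light-dependent protochlorophyllide reductase, stood at 808, 811 and 818 TPM in Col and 428, 397 and 441 in ino80 (-0.94 ± 0.06, adjusted p = 6.29e-08). CRD1, the cyclase that closes the fifth ring, stood at 604, 604 and 609 TPM against 360, 347 and 348 (-0.78 ± 0.05, adjusted p = 2.28e-07). CH1, chlorophyllide a oxygenase, which makes chlorophyll b, stood at 27.7, 30.0 and 28.5 TPM against 13.5, 14.9 and 15.4 (-0.93 ± 0.08, adjusted p = 1.53e-06). In all 3 the groups were far apart relative to their spread. PORC (-0.42) and CHLI1 (-0.33 ± 0.05), a magnesium chelatase subunit, fell less, and the chelatase genes GUN5 (-0.14) and CHLD (-0.20) and the chlorophyll synthase G4 (-0.04) were not called. The calls of HEMA1 (-0.27), CHLM (-0.15) and the 1 higher gene, PCB2 (0.17), were lost without single libraries of either genotype, CHLM and PCB2 without any 1 of the 6 and HEMA1 without Col replicate 1 or 3 or ino80 replicate 3, with adjusted p-values up to 0.136 for HEMA1, 0.158 for CHLM and 0.133 for PCB2, which also ended under both other scalings. In the same libraries the root genes with PYK10 summed to more in ino80, as given above, and their part in these differences was not tested.

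**Figure D4:**
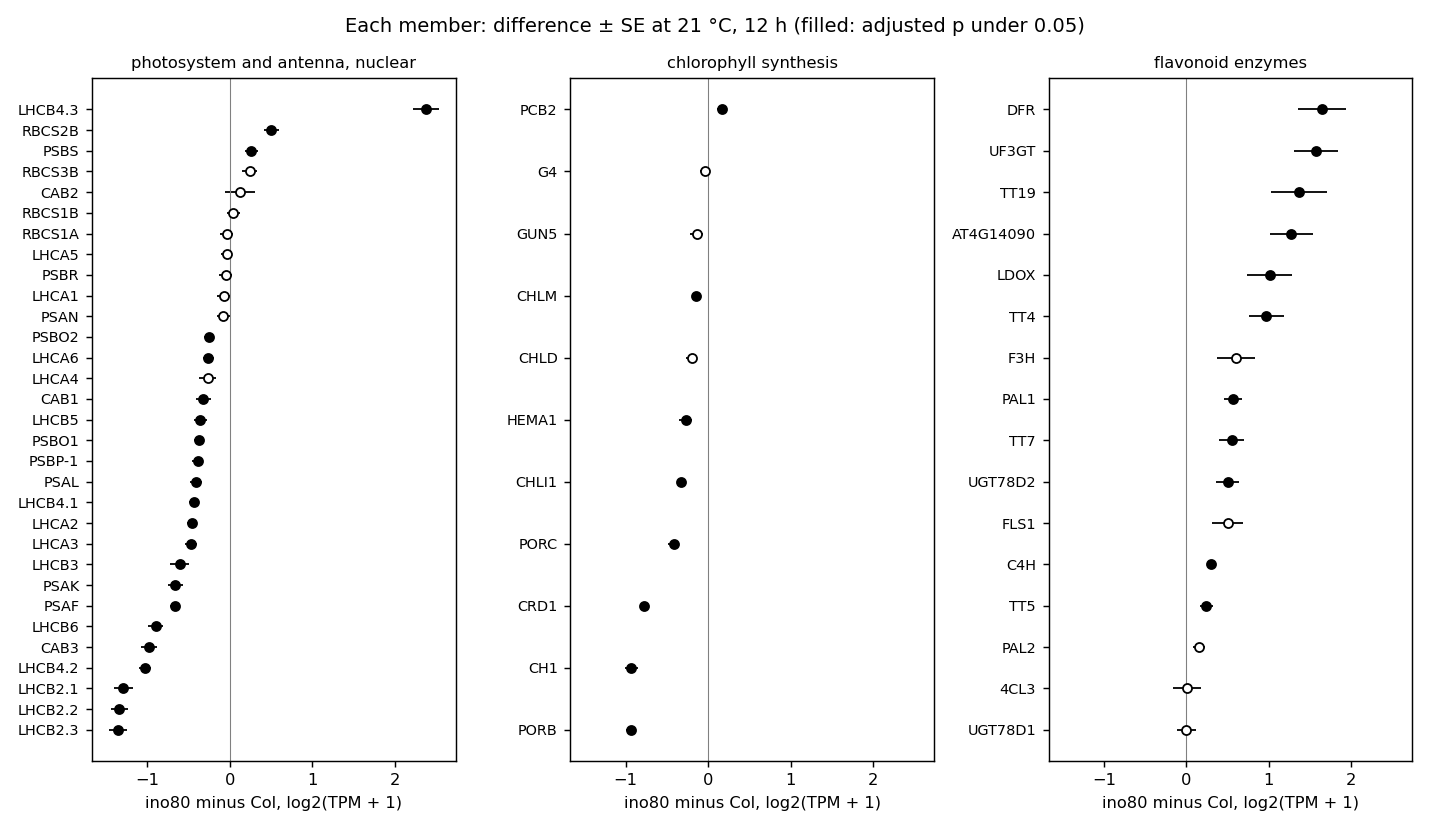
Difference of each tested member (ino80 minus Col on the log2(TPM + 1) scale, point, with its SE as a bar) in 3 lists; filled points passed an adjusted p of 0.05. Most photosystem and chlorophyll genes lie left of 0, LHCB4.3 at 2.38 is the farthest to the right, and flavonoid enzymes lie at or right of 0.

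CRD1 and CH1 both hold a G-box, the CACGTG palindrome bound by bHLH and bZIP factors such as PIFs and HY5, at the same distance from the annotated start, beginning 52 bases before it, and CH1 has a second one beginning 32 bases before. Promoters from 250 bases before to 50 after the start were read from RefSeq assembly TAIR10.1, in the direction of the gene, CRD1 at chr3:21076255-21076554 (plus strand) and CH1 at chr1:16851222-16851521 (minus strand). They are shown because both genes fell and hold the G-box, in capitals, the only 2 of the 11 chlorophyll promoters that do.
CRD1: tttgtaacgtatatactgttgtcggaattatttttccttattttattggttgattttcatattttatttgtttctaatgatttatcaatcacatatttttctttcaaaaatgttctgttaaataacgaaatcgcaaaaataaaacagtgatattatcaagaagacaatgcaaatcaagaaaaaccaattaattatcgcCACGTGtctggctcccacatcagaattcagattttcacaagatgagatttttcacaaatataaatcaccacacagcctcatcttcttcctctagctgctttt
CH1: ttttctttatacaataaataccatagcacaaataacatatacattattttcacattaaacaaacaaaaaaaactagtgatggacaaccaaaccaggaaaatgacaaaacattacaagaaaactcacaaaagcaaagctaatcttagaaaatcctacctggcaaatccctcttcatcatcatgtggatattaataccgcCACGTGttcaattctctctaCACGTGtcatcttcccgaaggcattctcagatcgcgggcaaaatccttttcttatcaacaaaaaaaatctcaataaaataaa
The motif, read on both strands, was in 8 of 31 promoters of the photosystem list (25.8%) and 2 of 11 of the chlorophyll list, beside 8.96% of all 19483 promoters read, 247 of the 2361 of lower genes and 285 of the 3265 of higher genes. A match is a description of these letters only.

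Enzymes of flavonoid and anthocyanin synthesis were higher in ino80. Of 16 genes, 11 were called higher and 0 lower (16.7% and 12.1% of all genes), and the median was 0.55. Without Col replicate 1, 7 of the 16 were called, and without each of the other libraries up to 13. The rises were largest in the late steps that turn dihydroflavonols into anthocyanins. DFR, dihydroflavonol reductase, was at 23.4, 41.8 and 34.1 TPM in Col and 146, 96.7 and 75.5 in ino80 (1.64 ± 0.29, adjusted p = 0.000805). UF3GT, a glycosyltransferase that decorates anthocyanins, was at 6.27, 17.7 and 12.9 TPM against 46.9, 33.3 and 28.9 (1.57 ± 0.27, adjusted p = 0.000681). Within each genotype the level varied by more than 1.5 times in both genes, yet the groups did not overlap. TT19, a glutathione S-transferase needed for anthocyanin to reach the vacuole (1.37 ± 0.34, adjusted p = 0.00713), and AT4G14090 (1.27 ± 0.26, adjusted p = 0.00196) rose too, and LDOX, higher by 1.01 ± 0.27, lost its call without Col replicate 1 or ino80 replicate 1 (adjusted p up to 0.0571). Chalcone synthase TT4, at the entry to the pathway, went from 491, 604 and 564 TPM to 1248, 1171 and 870 (0.97 ± 0.21, adjusted p = 0.00309). Upstream, PAL1 rose by 0.56 ± 0.11 and C4H by 0.30 ± 0.05, while F3H (0.60 ± 0.23, adjusted p = 0.0598), FLS1 (0.50), PAL2 (0.15), 4CL3 (0.01) and UGT78D1 (0.00) were not called.

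Of 8 regulators of the pathway, 2 were higher and 0 lower. TT8, a bHLH activator of the late genes, was at 1.44, 1.34 and 1.30 TPM in Col and 3.12, 3.0 and 3.57 in ino80 (0.84 ± 0.17, adjusted p = 0.00191). The repressor MYBL2 rose by 0.59 ± 0.16 (adjusted p = 0.0124, and up to 0.0604 without Col replicate 1 or ino80 replicate 3). PAP1, the MYB activator, had 2.61, 4.61 and 4.39 TPM against 6.82, 5.995 and 4.94, a difference of 0.53 ± 0.24 that was not called, and GL3 and EGL3 each differed by -0.31. The promoters of DFR (chr5:17165983-17166282 (minus strand)) and UF3GT (chr5:21938347-21938646 (minus strand)) are shown, again in TAIR10.1 and in the direction of the gene, because each holds a pair of G-boxes, in capitals. Those of DFR begin 14 bases before and 9 after the start, and those of UF3GT 171 and 128 bases before.
DFR: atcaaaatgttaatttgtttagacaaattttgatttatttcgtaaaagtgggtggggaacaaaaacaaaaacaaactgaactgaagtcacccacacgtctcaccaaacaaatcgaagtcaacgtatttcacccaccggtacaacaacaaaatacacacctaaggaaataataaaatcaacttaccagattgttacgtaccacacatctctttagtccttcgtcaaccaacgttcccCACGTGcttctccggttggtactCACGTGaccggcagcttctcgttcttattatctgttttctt
UF3GT: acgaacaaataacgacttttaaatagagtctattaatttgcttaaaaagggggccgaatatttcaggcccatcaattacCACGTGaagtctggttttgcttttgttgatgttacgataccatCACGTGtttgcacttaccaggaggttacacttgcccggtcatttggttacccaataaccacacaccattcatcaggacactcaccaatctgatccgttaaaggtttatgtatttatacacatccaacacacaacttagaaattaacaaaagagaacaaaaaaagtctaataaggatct
G-boxes were found in 5 of the 16 promoters of the flavonoid enzymes (31.2%). The same motif was present both in promoters of lower and in promoters of higher genes.

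Genes that respond to lack of sugar or to darkness were higher. Of 16, 9 were called higher and 0 lower (16.7% and 12.1% of all genes), and the median was 0.41. Without Col replicate 2 or ino80 replicate 3 only 6 were higher. After median-of-ratios or quantile scaling 7 were, and 12 with only the 6 libraries in the fit. DRM2, a dormancy-associated gene, went from 373, 322 and 357 TPM to 526, 609 and 590 (0.71 ± 0.09, adjusted p = 4.11e-05). GDH2, glutamate dehydrogenase, went from 134, 116 and 125 TPM to 166, 176 and 190 (0.50 ± 0.08, adjusted p = 0.00022). TPS10 (0.64 ± 0.11), TPS9 (0.47) and TPS11 (0.40), of the trehalose phosphate synthase family that follows sugar status, and IVD (0.49 ± 0.11), a leucine breakdown enzyme, rose with them. ASN1, asparagine synthetase (0.42), and DIN10 (0.26) were not called.

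Genes of sulfate assimilation were called in opposite directions at the 2 temperatures. Of 11 genes of sulfate assimilation and low-sulfur response, 3 were lower and 0 higher at 21 °C (12.1% and 16.7% of all genes), with a median of -0.32. Without Col replicate 3 or ino80 replicate 1 or 3 only 2 were lower. After median-of-ratios or quantile scaling 5 were lower, and 6 with only the 6 libraries in the fit. APR3, an adenylyl sulfate reductase, which is the main control point of the pathway, was at 172, 189 and 165 TPM in Col and 99.1, 118 and 119 in ino80 (-0.64 ± 0.09, adjusted p = 8.94e-05). APR2 was at 98.0, 110 and 104 TPM against 65.5, 69.9 and 70.9 (-0.59 ± 0.08, adjusted p = 0.000108), and APR1 at 64.9, 64.1 and 58.5 against 41.9, 45.7 and 55.8 (-0.39 ± 0.18, adjusted p = 0.131). At 27 °C 9 of the 11 were called higher and 0 lower, beside 18.7% and 11.5% of all genes there. APR1 then differed by 1.40, APR2 by 0.45 and APR3 by 0.37. The change of the genotype difference with temperature was itself called for 4 of the 11, APR1 (1.79, adjusted p = 0.00903), APR2 (1.04, adjusted p = 0.00359), APR3 (1.01, adjusted p = 0.0044) and LSU3 (1.42, adjusted p = 0.0492), beside 147 of all 19578 genes (0.751%). In Col the 3 APR genes had lower TPM in every 27 °C library than in any 21 °C library, from 16.3 to 29.2 against 58.5 to 64.9 for APR1, while in ino80 the ranges of APR1 were 51.2 to 79.3 and 41.9 to 55.8 and overlapped. The plot of levels at both temperatures shows these genes.

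Jasmonate genes were called in both directions. Of 17 tested genes of jasmonate synthesis and response, 6 were higher and 3 lower. LOX2, the chloroplast lipoxygenase that starts the pathway, was at 107, 115 and 112 TPM in Col and 52.4, 61.1 and 52.9 in ino80 (-1.0 ± 0.16, adjusted p = 0.000402), and AOS, allene oxide synthase, at 133, 145 and 114 against 70.4, 58.4 and 69.1 (-0.97 ± 0.10, adjusted p = 8.66e-06). AOC2, allene oxide cyclase and the next enzyme, rose instead, from 137, 173 and 151 TPM to 254, 268 and 243 (0.73 ± 0.09, adjusted p = 6.08e-05). LOX3 (0.53 ± 0.09), another lipoxygenase, the repressors JAZ6 (0.43) and JAZ9 (0.54) and the storage protein gene VSP2 (0.73) rose. At 27 °C 11 of the 17 were higher and 0 lower, and the difference depended on temperature for LOX2 (1.74, adjusted p = 0.00579), AOS (0.73, adjusted p = 0.0295) and AOC1 (1.33, adjusted p = 0.0178).

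**Figure D5:**
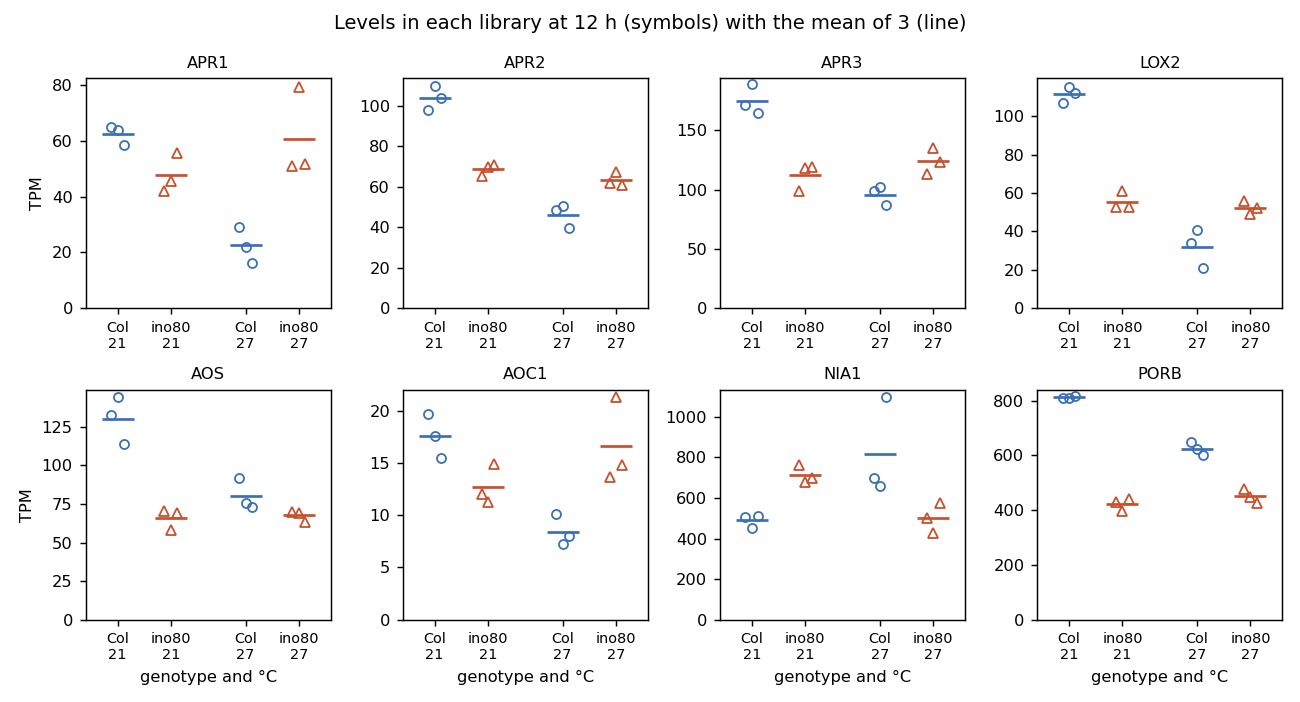
TPM in each library at 12 h (circles Col, triangles ino80, lines the mean of 3) at 21 °C and 27 °C for 8 genes whose genotype difference changed with temperature. LOX2 is at 107 to 115 TPM in Col and 52.4 to 61.1 in ino80 at 21 °C, and at 20.9 to 40.8 and 49.1 to 55.9 at 27 °C.

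Glucosinolates, the sulfur-rich defence compounds of crucifers, showed divided changes. Of 19 genes, 7 were lower and 4 higher, and without Col replicate 1 or 3 or ino80 replicate 3 only 3 were lower. ESM1, a modifier of glucosinolate breakdown, fell from 304, 309 and 299 TPM to 75.1, 77.2 and 63.9 (-2.07 ± 0.08, adjusted p = 8.67e-10). The myrosinase TGG2 fell from 70.5, 43.0 and 68.6 TPM to 18.8, 37.2 and 17.6 (-1.32 ± 0.24), whereas its partner TGG1 rose from 1217, 1338 and 1219 to 1714, 1877 and 1668 (0.48 ± 0.07, adjusted p = 0.000114). CYP79F1, of the aliphatic branch, fell by 1.22 on the log2 scale (SE 0.39), and CYP79B3, of the indolic branch, went from 158, 152 and 158 TPM to 239, 239 and 233 (0.60 ± 0.06, adjusted p = 4.77e-06).

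Of 10 nitrate genes, 1 was higher and 2 lower (16.7% and 12.1% of all genes), and 0 were lower without Col replicate 3. NIA1, nitrate reductase, had 507, 453 and 513 TPM in Col and 763, 677 and 699 in ino80 (0.54 ± 0.15, adjusted p = 0.0153, and up to 0.0604 without Col replicate 2 or ino80 replicate 1). At 27 °C NIA1 was lower in ino80, by -0.68, and the difference between temperatures was called (-1.21, adjusted p = 0.0189). Of 8 phosphate starvation genes, 3 were lower and 0 higher. SQD2, which makes the sulfolipid of chloroplast membranes, fell from 55.0, 54.5 and 53.9 TPM to 25.2, 23.95 and 24.9 (-1.11 ± 0.07, adjusted p = 8.26e-08), and SQD1, the step before it, fell by 0.32 on the log2 scale (SE 0.06). SPX1, a phosphate sensor, lost its call without Col replicate 3 or ino80 replicate 3 (-0.54 ± 0.16, adjusted p = 0.0186, and up to 0.0757). Among 14 iron genes, 1 was lower, the ferritin FER3 (-0.31 ± 0.08), and without Col replicate 3 or ino80 replicate 2 that call was lost too (adjusted p up to 0.0583).

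Among the hormone pathways, ethylene genes were higher where they were called. Of 15, 6 were higher and 0 lower. The receptors ERS1 (0.40 ± 0.07) and ERS2 (0.45 ± 0.12), the kinase CTR1 (0.34 ± 0.07), which holds the pathway off, and EBF2 (0.36 ± 0.07), which removes the factor EIN3, rose. EIN2 (-0.11), EIN3 (0.10) and ETR1 (0.15) were not called.

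Of 14 abscisic acid genes, 4 were higher and 2 lower, and 3 of the higher ones were receptors. PYL6 went from 11.5, 8.79 and 8.93 TPM to 25.7, 23.0 and 27.6 (1.30 ± 0.20, adjusted p = 0.000243), PYL4 from 160, 115 and 140 to 223, 231 and 270 (0.81 ± 0.12, adjusted p = 0.000138), and PYL5 from 43.3, 33.1 and 38.1 to 58.0, 66.1 and 67.5 (0.73 ± 0.09, adjusted p = 3.08e-05). AHG3, a phosphatase that blocks the pathway, fell from 47.5, 57.2 and 54.6 TPM to 33.7, 34.4 and 33.4 (-0.63 ± 0.12, adjusted p = 0.00136). The response genes RAB18 (0.40), RD29B (-0.14) and RD22 (-0.09) were not called.

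Of 15 cytokinin genes, 4 were lower and 0 higher. The response regulators ARR16 and ARR15 fell most, from 11.3, 9.30 and 10.7 TPM to 2.38, 3.67 and 2.90 (-1.53 ± 0.14, adjusted p = 2.32e-06) and from 2.73, 2.58 and 3.41 to 0.695, 1.00 and 0.294 (-1.25 ± 0.21, adjusted p = 0.000501). Without Col replicate 1 or 2 or ino80 replicate 2 or 3, 2 of the 15 were lower, since ARR4 (-0.19, adjusted p up to 0.0653) and CKX4 (-0.44) then missed the threshold. CKX4 missed it without any 1 of the 6 libraries (adjusted p from 0.0553 to 0.0968). ARR5 (-0.21), ARR6 (-0.34) and ARR7 (-0.35) were not called.

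Auxin genes were called in both directions, 4 of 23 higher and 7 lower (16.7% and 12.1% of all genes), and without ino80 replicate 3 only 1 was higher. AXR2, an Aux/IAA repressor, rose from 115, 127 and 121 TPM to 161, 157 and 167 (0.42 ± 0.06, adjusted p = 0.000116), and DFL1, an enzyme that conjugates auxin, fell from 74.4, 72.7 and 71.6 to 51.6, 55.7 and 55.4 (-0.42 ± 0.06, adjusted p = 0.000103). The growth genes SAUR24 (-1.06 ± 0.23) and SAUR21 (-0.96 ± 0.21) fell, at levels below 5.2 TPM. Of 20 brassinosteroid and gibberellin genes, 5 were higher and 2 lower (16.7% and 12.1% of all genes), and 3 were higher without Col replicate 2 or ino80 replicate 3. The gibberellin receptor GID1A rose from 36.1, 36.0 and 38.5 TPM to 46.8, 46.8 and 46.2 (0.33 ± 0.06), and the DELLA repressors RGA (-0.28 ± 0.06) and RGL1 (-0.59 ± 0.12) fell. BAS1, which inactivates brassinosteroids, rose by 0.54 ± 0.12, and BRI1, BZR1 and BES1 differed by 0.01, 0.01 and -0.11.

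Warmth and shade growth genes, the subject of the series, were called at shares near those of all genes (16.7% higher and 12.1% lower). Of 20, 5 were higher and 3 lower, and without Col replicate 3 only 1 was lower. PIF7, a bHLH factor of shade and daytime warmth responses, was at 8.72, 10.7 and 8.87 TPM in Col and 2.56, 2.89 and 3.36 in ino80 (-1.40 ± 0.14, adjusted p = 4.41e-06). UNE10, a related bHLH, rose from 30.0, 35.8 and 29.1 TPM to 43.6, 45.9 and 43.5 (0.48 ± 0.09), TAA1, the first enzyme of auxin synthesis, from 28.8, 30.3 and 28.4 to 46.3, 43.8 and 40.5 (0.56 ± 0.07, adjusted p = 6.16e-05), and the cell wall enzyme XTR7 from 6.36, 6.33 and 9.96 to 15.03, 17.82 and 18.5 (1.1 ± 0.20). PIF4, the central factor of thermomorphogenesis, was at 2.78, 1.78 and 2.55 TPM against 2.35, 1.90 and 1.90 (-0.13 ± 0.14, adjusted p = 0.528), and its target YUC8 at 1.55, 1.498 and 2.13 against 2.22, 2.09 and 2.27 (0.23 ± 0.14, adjusted p = 0.243). Their differences were within the spread between libraries.

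Of 19 heat shock genes, 6 were higher and 1 lower, with a median of 0.23, and without Col replicate 2 or Col replicate 3 only 3 were higher. At 1 h, also at 21 °C, 1 of 20 was higher and 11 were lower, with a median of -0.24. The heat shock factors HSFA7A (27.0, 21.2 and 26.3 TPM against 47.6, 57.5 and 53.9, a difference of 1.07 ± 0.10, adjusted p = 2.18e-06) and HSFB1 (43.1, 38.7 and 40.4 against 55.1, 66.0 and 70.9, 0.63 ± 0.12) rose without heat, as did the chaperone HSP90.1 (0.76 ± 0.15) from a low level. HSP70 differed by 0.32 ± 0.15 (adjusted p = 0.121), HSP101 by 0.00, and AT1G07400, annotated as an HSP20-like chaperone, by -0.61 ± 0.19 (adjusted p = 0.0241, and up to 0.11 without Col replicate 1 or ino80 replicate 2). The small chaperone genes ATHSP22.0 and HSP23.6-MITO stayed below 0.33 TPM in every 21 °C library at 12 h and were not tested.

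Of 18 light signalling genes, 2 were higher and 3 lower, and 1 was higher without Col replicate 1 or 2 or ino80 replicate 1 or 2. The photoreceptors PHYD (11.3, 11.6 and 12.1 TPM against 8.03, 6.41 and 7.32, -0.62 ± 0.10, adjusted p = 0.000307), PHOT1 (-0.36 ± 0.09) and PHOT2 (-0.32 ± 0.07) fell, and PHYA (0.08), PHYB (0.11), CRY1 (-0.01), CRY2 (0.12) and COP1 (0.02) were not called. ELIP2, a light stress protein, rose from 2.98, 2.19 and 2.17 TPM to 6.48, 5.96 and 5.35 (1.01 ± 0.16). The clock was read at one phase only. CCA1, LHY, PRR9, PRR7 and LNK1, morning genes, stayed at or near 1 TPM or below in each of the 6 libraries and were not tested. Of 14 evening genes, 4 were higher and 1 lower, and 1 was higher without Col replicate 2 or ino80 replicate 3 while 2 were after median-of-ratios or quantile scaling. ELF4 rose from 67.0, 69.1 and 69.5 TPM to 102, 108 and 95.9 (0.57 ± 0.06, adjusted p = 1.11e-05), PRR3 fell from 11.5, 10.8 and 12.8 to 7.39, 7.59 and 8.65 (-0.51 ± 0.10), and GI (0.05) and ELF3 (-0.08) were not called. Of 7 morning genes tested, 3 were higher and 0 lower, with RVE1, which activates auxin synthesis, higher by 0.46 ± 0.10.

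The flowering repressors FLC and MAF5 were higher and the activators SOC1 and SPL3 lower. Of 11 flowering genes, 3 were higher and 3 lower, and 5 were higher without Col replicate 3. FLC, the repressor that vernalization silences, was at 5.97, 7.34 and 6.47 TPM in Col and 15.8, 16.1 and 14.2 in ino80 (1.11 ± 0.11, adjusted p = 3.66e-06). Its relative MAF5 was at 2.23, 1.17 and 1.88 TPM against 4.85, 5.96 and 4.80 (1.18 ± 0.16, adjusted p = 7.82e-05). SOC1, an activator that FLC represses, was at 3.19, 3.46 and 3.96 TPM against 1.03, 0.813 and 1.38 (-1.13 ± 0.20, adjusted p = 0.000796), and SPL3, also an activator, fell by 0.83 on the log2 scale (SE 0.16). The repressor SVP fell (-0.33), the repressor TEM1 rose by 0.30, and MAF1 (-0.05), MAF2 (0.27), MAF3 (0.25), MAF4 (0.07) and CO (-0.08) were not called.

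Of 12 genes of H3K4 methylation, the mark of active promoters, 3 were higher and 1 lower (16.7% and 12.1% of all genes). The methyltransferases ATX4 (6.58, 6.19 and 7.49 TPM against 13.9, 11.8 and 13.7, 0.86 ± 0.12, adjusted p = 7.86e-05) and ATX5 (5.30, 4.86 and 5.65 against 9.91, 8.91 and 9.99, 0.76 ± 0.14, adjusted p = 0.00112) rose, ATX1 (-0.05), ATX2 (-0.09) and ATX3 (0.24) were not called, and the COMPASS subunit RBL fell by 0.33 on the log2 scale (SE 0.09). Of 13 elongation genes, 3 were higher and 0 lower. SSRP1, of the histone chaperone FACT, rose from 37.6, 32.0 and 38.1 TPM to 49.7, 46.5 and 49.7 (0.43 ± 0.08, adjusted p = 0.00141), while its partner SPT16 differed by -0.05. The other 2, GTB1 (0.41 ± 0.13, adjusted p up to 0.0952) and PHP (0.30 ± 0.08, adjusted p up to 0.0639), lost their calls without Col replicate 2 and some other single libraries, so that 1 of the 13 was higher without Col replicate 2. Without that library SPT4-1, at -0.41 (adjusted p = 0.0514), was called lower.

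Replication and cell cycle genes were lower where they were called, 6 of 18, with 0 higher (12.1% and 16.7% of all genes) and a median of -0.22. Without Col replicate 3 or ino80 replicate 2 or 3 only 4 were lower, and after median-of-ratios or quantile scaling 11 were. KNOLLE, the syntaxin of the cell plate, was at 50.8, 48.0 and 56.2 TPM in Col and 37.0, 43.4 and 37.6 in ino80 (-0.38 ± 0.09, adjusted p = 0.00417), and the mitotic cyclin CYCB1;2 at 31.3, 27.1 and 33.2 against 20.5, 22.2 and 21.6 (-0.49 ± 0.10, adjusted p = 0.0031). MCM3, a subunit of the replicative helicase, was at 18.9, 17.3 and 19.9 TPM against 15.6, 13.5 and 14.3 (-0.35 ± 0.09, adjusted p = 0.00749). The promoter of MCM3, at chr5:18773657-18773956 (minus strand) of TAIR10.1, is shown in the direction of the gene because it carries 3 copies, in capitals, of the site II motif GGCCCA, known from genes of dividing cells and ribosomes.
MCM3: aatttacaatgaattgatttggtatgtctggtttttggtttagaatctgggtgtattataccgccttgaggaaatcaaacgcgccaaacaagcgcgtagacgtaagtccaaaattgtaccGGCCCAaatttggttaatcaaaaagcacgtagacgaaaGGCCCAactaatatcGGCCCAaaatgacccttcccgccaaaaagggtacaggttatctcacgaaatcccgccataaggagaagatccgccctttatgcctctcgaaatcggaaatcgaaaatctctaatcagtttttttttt
Its copies begin 130, 92 and 77 bases before the start. On either strand the motif was present in 7 of the 18 promoters of this list (38.9%) and in 18.7% of all promoters, 22.6% of those of lower genes, 11.5% of those of higher genes and 4.87% of those of genes higher by at least 1. The telobox AAACCCTA, often found with it, was in 5.46% of all, 5.97% of lower and 3.49% of higher promoters.

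Of 14 DNA damage genes, 3 were higher and 2 lower (16.7% and 12.1% of all genes), and 1 was lower without any 1 library but Col replicate 2. GMI1, an early gene of the break response, went from 1.01, 1.06 and 1.17 TPM to 5.67, 4.29 and 5.23 (1.54 ± 0.14, adjusted p = 2.02e-06), KU80, which binds broken ends, from 12.3, 11.1 and 12.4 to 19.1, 16.9 and 18.0 (0.56 ± 0.08), and SOG1, the factor that heads the response, from 10.2, 9.34 and 9.93 to 14.9, 14.6 and 14.4 (0.53 ± 0.10). BRCA1 (0.06), PARP1 (-0.08) and CYCB1;1 (-0.15), which rise when the response is on, were not called, and TSO2, ribonucleotide reductase, fell by 0.33 on the log2 scale (SE 0.08).

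Immune and stress lists were nearer the background. Of 13 salicylic acid genes, 3 were higher and 0 lower, among them the factors WRKY18 (5.89, 5.44 and 4.82 TPM against 12.2, 11.2 and 9.53, 0.91 ± 0.14, adjusted p = 0.000276) and WRKY70 (0.81 ± 0.20), while PR1 (0.08), PR5 (-0.16), ICS1 (0.03) and EDS1 (-0.05) were not called. Of 15 early touch and wound genes, 4 were higher and 2 lower (1 lower without Col replicate 1 or 3 or ino80 replicate 1 or 3), with ERF104 at 29.4, 26.3 and 28.5 TPM against 36.8, 43.5 and 43.5 (0.54 ± 0.07, adjusted p = 6.67e-05) and the calmodulin-like TCH2 at -0.46 ± 0.10. Of 10 cold genes, 1 was higher, COR27 (0.55 ± 0.08), which the evening clock also controls, and 0 lower. CBF1, CBF2 and CBF3 stayed below 0.57 TPM in each of the 6 libraries. Transcripts of the organelle genomes were called less often than the 16.7% higher and 12.1% lower of all genes. Of 71 chloroplast genes 6 were higher and 3 lower, with a median of 0.05, and of 23 mitochondrial genes 2 were higher and 1 lower. The largest chloroplast changes were ATCG00120 (13.7, 15.3 and 14.1 TPM against 35.6, 38.1 and 32.0, 1.23 ± 0.10) and ATCG01020 (186, 182 and 188 against 76.6, 90.5 and 72.9, -1.21 ± 0.10). Whether polyadenylated RNA was selected is not given in the sources used here.

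The difference at 21 °C and 12 h was set beside the same contrast at 27 °C and 12 h and at 21 °C and 1 h, none of which share a library, although both 12 h contrasts share an estimate of spread. At 27 °C 18.7% of genes were called higher and 11.5% lower. Of the genes called higher at 21 °C, 2189 were called higher there too, 66.9% of them and 59.8% of the higher genes at 27 °C, and 15 were called lower. Of those called lower, 1472 were again lower, 62.2% and 65.2% of each list, and 12 were higher. At 1 h, where 15.4% of 19190 genes were called higher and 20.5% lower, 18827 genes were tested in both tables. Of the genes higher at 12 h, 1207 were higher at 1 h (38% and 41.8% of each list) and 243 lower, and of the genes lower at 12 h, 1261 were lower at 1 h (54.7% and 32.8%) and 149 higher. In all 3 comparisons 965 genes were higher and 865 lower.

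Values of single genes and counts of lists in these comparisons were as follows. AT3G03776 differed by 3.60 at 1 h and 3.28 at 27 °C, AT2G40570 by -2.95 and -3.41, PnsB1 by -2.17 and -3.40, FLC by 1.16 and 1.38, GMI1 by 1.5 and 1.58, and PIF7 by -1.28 and -1.49. For the photosystem and antenna genes the count was 1 higher and 20 lower at 27 °C, with a median of -0.48, and 12 higher and 1 lower at 1 h, with a median of 0.11. Chlorophyll genes were 1 higher and 8 lower at 27 °C, and 5 higher and 0 lower at 1 h. The flavonoid enzymes were 10 higher and 1 lower at 27 °C and 8 higher and 3 lower at 1 h. Sugar starvation genes were 4 higher and 0 lower at 27 °C, and 4 higher and 4 lower at 1 h. Replication genes were 2 higher and 2 lower at 27 °C, and 0 higher and 12 lower at 1 h. Heat shock genes were 8 higher and 0 lower at 27 °C, and 1 higher and 11 lower at 1 h. Early touch and wound genes were 7 higher and 2 lower at 27 °C, and 0 higher and 11 lower at 1 h. The tables of both times were normalized separately, and the shifts between times were not tested.

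Called genes were spread over the genome. The share called was 28.6% on chromosome 1, 30.7% on chromosome 2, 28.9% on chromosome 3, 28% on chromosome 4 and 28.6% on chromosome 5. Among the 100 tested genes on each side of INO80, 27% and 21% were called, below the 28.8% of all genes. Neighbouring genes shared a direction slightly more often than any pair in order: 18.7% of genes next to a higher gene were higher, against 16.8%, and 14% of genes next to a lower gene were lower, against 12.1%. The longest run of neighbouring higher genes held 7, from AT5G64230 to DIT2.1 on chromosome 5, with differences from 0.32 to 0.83. LHCB4.3 lay in a run of 5 higher genes on chromosome 2, and HTA4 in a run of 4 lower genes on chromosome 4.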

How the data were processed

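RNA of whole seedlings was sequenced, and the authors deposited 1 table of TPM for 12 h and 1 for 1 h, with 12 libraries in each. Build TAIR10 and, with no roles or order, DESeq2 1.26.0, HTSeq 0.11.2, HISAT2 2.1.10 and fastp 0.20.1 stand in the submitters' processing notes. Gene lengths, strand use and the filter on listed genes are not given in the sources used here. Each header has 1 name fewer than the columns, as where gene identifiers have no name of their own, and each name was matched to the labels. TPM keeps no depth, so depth is a rough estimate from the step between low values of TPM times RefSeq gene length, on which 27.8% to 30.2% of low values lay.

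Each table was fitted with limma 3.58.1 in R 4.3.3 on log2(TPM + 1), with 4 group means, a trend in the prior spread and 8 residual degrees of freedom. Same-numbered Col and ino80 libraries deviated at r = -0.201, -0.076 and -0.148 from their means, so numbers were not used as pairs. On simulated data for this contrast, with 19578 genes and normal noise, 100 genes were changed by 0.5 and 100 by 1 log2 unit. These were drawn from genes above about 5 TPM in Col. Of them 64% and 98% were recovered, with 9 false calls. Far fewer genes were changed there than were called in the data, so these values do not estimate the false calls or the recovery in the data. Genes named are INO80, the 12 largest called rises and falls with a mean of at least 5 TPM and libraries that did not overlap, up to 4 called members per list by moderated statistic, all members of the INO80 and SWR1 lists, FLC, PIF4, YUC8 and HSP70, and list members chosen after their values were seen. Members and lists were chosen with earlier results of these data known. Symbols, transcript order and promoters came from RefSeq TAIR10.1, joined by locus identifier. Other pseudocounts, filters, scalings, fits and single libraries left out were tried as alternatives. Results for some genes are not reported here.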

Additional observations from a re-analysis of the deposited data

Results flagged for a closer look

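For 10 of the 159 genes named by rule the difference between ino80 and Col changed from 21 °C to 27 °C in the interaction test of the 12 h libraries (limma, adjusted over all genes). Over all genes tested the share was 0.751%. Both temperatures here have 3 libraries per genotype. The sign turned for 5 of the 10 genes. The values are the 27 °C difference minus the 21 °C difference on the log2(TPM + 1) scale. LOX2 changed by 1.74 (adjusted p = 0.00579), from -1.0 to 0.75. APR2 changed by 1.04 (adjusted p = 0.00359), from -0.59 to 0.45, and APR3 by 1.01 (adjusted p = 0.0044), from -0.64 to 0.37. NIA1 changed by -1.21 (adjusted p = 0.0189), from 0.54 to -0.68. PER1, a seed peroxiredoxin, changed by -0.83 (adjusted p = 0.00992), from 0.38 to -0.45. The other 5 kept their direction. The fall of PnsB1 was larger at 27 °C, by -0.87 (adjusted p = 0.00377), and so was that of ESM1, by -0.51 (adjusted p = 0.0425). The falls of PORB (0.48, adjusted p = 0.0168) and AOS (0.73, adjusted p = 0.0295) and the rise of THI2.2 (-0.94, adjusted p = 0.0315) were smaller there.

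For 23 of the 159 genes named by rule all 3 ino80 libraries lay beyond all 3 Col libraries one way at 12 h and the opposite way at 1 h, both at 21 °C. Most named genes were chosen as called at 12 h, and over all genes the 12 h libraries did not overlap for 45.5%. How many of all genes lay apart in opposite directions was not counted. Of 18827 genes tested at both times, 243 were called higher at 12 h and lower at 1 h, and 149 the reverse. The difference between the times was not tested, since the tables were normalized separately. Pigment and antenna genes were lower at 12 h and higher at 1 h: LHCB2.2 differed by -1.34 at 12 h and 0.28 at 1 h, LHCB4.2 by -1.03 and 0.27, CH1 by -0.93 and 0.43, and CRD1 by -0.78 and 0.25. The same order was found for the jasmonate genes LOX2 (-1.0 and 1.39) and AOS (-0.97 and 0.93) and the sulfur genes APR3 (-0.64 and 0.28), APR2 (-0.59 and 0.29) and SDI1 (-0.65 and 1.21), whose 12 h call was lost without Col replicate 3 or ino80 replicate 1 or 3 (adjusted p up to 0.0816). It was also found for the phosphatase AHG3 (-0.63 and 0.43) and the photoreceptor PHOT1 (-0.36 and 0.20), which was not called at 1 h (adjusted p = 0.0706).

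The other genes were higher at 12 h and lower at 1 h. Among stress genes, HSP90.1 differed by 0.76 at 12 h and -0.26 at 1 h, HSFB1 by 0.63 and -0.27, ZAT12 by 0.59 and -0.76, ERF104 by 0.54 and -0.70, SZF2 by 0.41 and -0.21, and ELIP2 by 1.01 and -0.19. The remaining ones were CASP2 (0.85 and -0.23), TAA1 (0.56 and -0.34), GDH2 (0.50 and -0.30), PER1 (0.38 and -0.38), C4H (0.30 and -0.20) and RVE4 (0.22 and -0.19), whose 12 h call was lost without Col replicate 3 (adjusted p = 0.0512) and under median-of-ratios or quantile scaling (adjusted p up to 0.0519).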

How the results depend on the processing

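Of 5639 genes called, 483 (269 higher and 214 lower) also passed a log2 difference of at least 1. The other pseudocounts, filters, scalings and fits called between 4909 and 6209 genes in total. They shared from 85.2% to 98.5% of the 5639 calls. The lowest total came with a mean TPM of at least 5, where only 15569 genes were tested. Median-of-ratios scaling gave 2813 higher and 3030 lower genes and quantile normalization 2788 and 2991, where the median difference of all genes moved from 0.035 to -0.005 and -0.008. Leaving out 1 library gave 4078 to 4895 calls, 2286 to 2853 higher and 1667 to 2042 lower, and left fewer libraries in the fit. With a replicate block 5421 genes were called (3154 higher and 2267 lower). Same-numbered libraries correlated at -0.201, -0.076 and -0.148 in their deviations from the group means. With 3 libraries per group these values cannot show whether the numbers pair the libraries. Of 140 called genes named by rule, 113 kept their call under every alternative other than the fold threshold, which 47 passed, 27 lost it without at least 1 library and 11 under another setting. No called gene among these changed direction. CAB1 differed by 0 after quantile normalization, which sets genes of the same rank to one value, and RBCS2B, also very abundant, lost its call there. Depth, about 0.11 TPM for 1 fragment on 1 kb, limits genes near 1 TPM.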
